A study of Mus musculus with 17 samples.

Results

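H3K27ac, the acetylation of lysine 27 of histone H3, marks active promoters and enhancers, and CUT&RUN reads it by cutting the DNA beside antibody-bound chromatin. The 891 regions described here are those whose H3K27ac signal rose at least 2-fold from the 6-OHDA-induced PD model to the NDST3-treated PD model, while 6-OHDA and healthy controls (sham) lay between 0.5 and 2 times each other. They make up 7.80% of the 11424 regions of the table. The regions were chosen by the deposited signal, after adding 1 to each value, so their signal in the 3 groups is given as a description and has no test.

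The mice were female ICR animals. The PD model was made at 8 weeks of age by injecting 6-OHDA, a toxin of catecholaminergic neurons, into the substantia nigra of 1 side, followed by saline. In the treated group, 2 µl of AAV9 carrying human NDST3, a heparan sulfate sulfotransferase, entered the substantia nigra 5 days after the lesion, and its CMV promoter is not restricted to a cell type. Sham mice were the controls, and the labels name brain as the tissue. H3K27ac was measured in 2 libraries per group, pooled by the authors into 1 column, RNA in 2 sham, 1 6-OHDA and 2 NDST3-treated libraries, open chromatin (ATAC-seq) in 1 library per group, and single cells in 1 library per group.

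Each of the 891 regions lies within 1000 bases of the start site of a gene, and 852 genes have at least 1 of them. All other regions of the table lie within that distance too, so no distal region could be among those raised. A promoter bears acetylated nucleosomes on both sides of a short nucleosome-free stretch at the start site, and the mark is laid down by the acetyltransferases CBP and p300 and removed by histone deacetylases. Promoters with many CpG dinucleotides, which often lie between a pair of genes read in opposite directions, carry it in most cell types.

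The region with the largest ratio was that of Rpgrip1l, a protein of the ciliary transition zone, at chr8:92039942-92040042 as deposited. The next were those of Smap1, a GTPase-activating protein of Arf6, at chr1:23961362-23961462, and Idh1, the cytosolic isocitrate dehydrogenase, at chr1:65225658-65225758. The submitters name mm10 as the build, but only 2.67% of 6747 start sites implied by the table lie within 5 bases of the GRCm38 start, and its unplaced scaffolds bear names of GRCm39. Sequence was therefore not read by these coordinates. It was taken from the RefSeq promoters of GRCm38.p6 for genes whose start site had the same offset between the builds as at least 4 nearby genes, which held for 664 of the 891 regions.

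The stretches upstream of 9 start sites are shown in the gene's direction, ending at the base before the start site, and capitals mark the bases inside the raised region. Each runs back 250 bases or to the nearest annotated exon. Idh1, Selenos and Prmt7 are shown because they are among the 10 regions of largest ratio, Mrpl42, Ndufab1 and Rps16 as genes of the mitochondrial and cytosolic ribosome and of respiration, and B2m, Spin4 and Oprl1 because their RNA passed the test.
Idh1: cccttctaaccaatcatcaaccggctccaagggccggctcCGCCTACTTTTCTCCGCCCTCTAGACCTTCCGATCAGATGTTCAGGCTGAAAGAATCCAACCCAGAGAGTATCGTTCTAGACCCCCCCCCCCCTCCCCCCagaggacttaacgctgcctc
Selenos: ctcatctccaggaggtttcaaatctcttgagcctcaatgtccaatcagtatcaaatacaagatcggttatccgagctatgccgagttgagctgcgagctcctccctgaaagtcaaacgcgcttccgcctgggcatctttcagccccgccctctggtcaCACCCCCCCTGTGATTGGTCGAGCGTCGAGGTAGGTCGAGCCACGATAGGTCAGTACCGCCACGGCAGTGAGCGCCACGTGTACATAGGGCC
Prmt7: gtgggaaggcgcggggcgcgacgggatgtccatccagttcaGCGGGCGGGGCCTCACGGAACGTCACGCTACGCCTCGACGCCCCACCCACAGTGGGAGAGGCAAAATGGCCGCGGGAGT
Mrpl42: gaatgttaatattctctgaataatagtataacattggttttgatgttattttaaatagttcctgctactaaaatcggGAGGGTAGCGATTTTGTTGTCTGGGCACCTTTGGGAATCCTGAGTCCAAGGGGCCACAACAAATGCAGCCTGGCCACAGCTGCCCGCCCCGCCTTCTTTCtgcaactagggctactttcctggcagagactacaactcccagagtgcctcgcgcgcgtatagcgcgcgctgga
Ndufab1: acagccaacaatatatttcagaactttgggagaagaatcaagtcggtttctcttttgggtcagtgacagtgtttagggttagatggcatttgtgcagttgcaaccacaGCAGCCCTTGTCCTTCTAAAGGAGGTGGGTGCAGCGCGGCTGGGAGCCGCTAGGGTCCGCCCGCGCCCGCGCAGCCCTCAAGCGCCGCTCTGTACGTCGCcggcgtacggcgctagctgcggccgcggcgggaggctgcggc
Rps16: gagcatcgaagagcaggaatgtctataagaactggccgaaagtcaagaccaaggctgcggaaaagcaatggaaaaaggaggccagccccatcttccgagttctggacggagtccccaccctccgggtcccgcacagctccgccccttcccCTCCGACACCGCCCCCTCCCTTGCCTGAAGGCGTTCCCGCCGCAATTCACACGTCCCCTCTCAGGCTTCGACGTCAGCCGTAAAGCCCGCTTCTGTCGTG
B2m: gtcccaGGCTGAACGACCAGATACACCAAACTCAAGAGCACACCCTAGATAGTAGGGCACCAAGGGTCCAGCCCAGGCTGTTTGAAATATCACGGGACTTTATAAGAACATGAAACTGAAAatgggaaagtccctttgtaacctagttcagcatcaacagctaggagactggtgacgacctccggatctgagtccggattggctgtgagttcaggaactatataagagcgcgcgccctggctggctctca
Spin4: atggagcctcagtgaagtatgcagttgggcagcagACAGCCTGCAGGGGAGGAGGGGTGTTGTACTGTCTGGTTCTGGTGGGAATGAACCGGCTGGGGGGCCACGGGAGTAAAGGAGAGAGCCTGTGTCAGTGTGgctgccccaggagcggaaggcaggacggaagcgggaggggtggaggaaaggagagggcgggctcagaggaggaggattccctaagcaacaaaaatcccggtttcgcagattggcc
Oprl1: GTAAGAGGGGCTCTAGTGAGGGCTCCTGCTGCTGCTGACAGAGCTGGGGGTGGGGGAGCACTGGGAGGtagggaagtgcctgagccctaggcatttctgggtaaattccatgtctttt

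In GRCm38.p6 the 9 stretches lie at chr1:65186480-65186639, minus strand (Idh1), chr7:66079399-66079648, plus strand (Selenos), chr8:106210934-106211053, plus strand (Prmt7), chr10:95501950-95502199, minus strand (Mrpl42), chr7:122101849-122102098, minus strand (Ndufab1), chr7:28350439-28350688, plus strand (Rps16), chr2:122147437-122147686, plus strand (B2m), chrX:95026683-95026932, minus strand (Spin4) and chr2:181715230-181715347, plus strand (Oprl1). The GC content inside the raised region ranged from 47.0% in B2m to 72% in Ndufab1. The GC box GGGCGG, searched on both strands, lay inside the raised region of Idh1 107 bases upstream of the start site, of Prmt7 at 77, of Mrpl42 at 90, of Ndufab1 at 86 and of Rps16 at 92. The other motifs were likewise counted on either strand. The raised part of Selenos held CCAAT, on the opposite strand, 79 bases upstream and the E-box CACGTG 17 bases upstream. In B2m, the TATAAA found lay on the opposite strand, 152 bases upstream and inside the raised part. Its CCAAT at 53, also on the opposite strand, lay outside the raised part. None of the 8 motifs searched was found in the printed stretch of Oprl1.

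Over the 529 genes with a raised region and a single RefSeq promoter of 300 bases (250 before and 50 after the start), the median GC content was 61.0% and the median ratio of observed to expected CpG 0.81. The 3849 genes with H3K27ac regions of which none was raised had 61.3% and 0.78, and all 22862 genes 52.3% and 0.37. GGGCGG was present in 67.1% of the promoters of genes with a raised region, 65.3% of those with other regions and 35.2% of all. TATAAA was found in 6.99%, 6.18% and 14.8%, and CCAAT in 39.5%, 37.5% and 38.2%. The CRE TGACGTCA, the E-box CACGTG and the ETS motif CCGGAAGT were found in 3.59%, 10.6% and 9.45% of the promoters with a raised region, and in 4.03%, 9.87% and 9.09% of those with other regions. GCATGCGC and CTCGCGAG were found in 6.62% and 3.02%, against 6.18% and 2.26%. A start site on the opposite strand within 1000 bases upstream was annotated for 21.7%, 19.3% and 11.2% of these 3 sets. In sequence, promoters with a raised region were thus close to other promoters in the table and both differed from the genome at large, and these shares are a description with no test.

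The raised regions had a median signal of 10.1 in sham, 9.95 in 6-OHDA and 25.4 in NDST3-treated brain, while the other 10533 regions had 15.4, 16.9 and 22.8. The rule favours regions with a low 6-OHDA signal, so this difference is in part built in. Their highest NDST3 signal was 94.1, and 155 of them had a 6-OHDA signal under 5. Their ratio of NDST3 to 6-OHDA had a median of 2.31 with quartiles of 2.13 and 2.65, 133 reached 3-fold and 17 reached 5-fold. Between 6-OHDA and sham, 453 were higher, 418 lower and 20 equal, and 247 of the 891 lay within 1.2-fold of each other. Compared with sham, 595 were at least 2-fold higher in NDST3-treated brain.

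**Figure D1:**
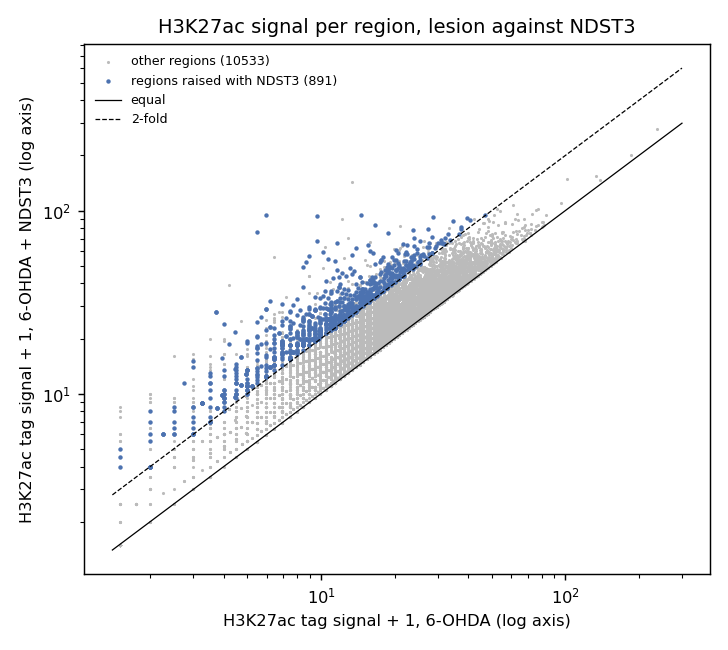
H3K27ac tag signal plus 1 in 6-OHDA (x axis, log scale) and in NDST3-treated brain (y axis, log scale), 1 point per region, with 891 raised regions in blue and 10533 others in grey. The solid line marks equal signal and no region lies below it, and the dashed line marks 2-fold, above which grey points failed the band between 6-OHDA and sham.

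The table holds no region with less signal in NDST3-treated brain than in 6-OHDA, and 425 regions have equal values, so it gives no direction of change for the genome. The median over all regions was 14.9 in sham, 16.4 in 6-OHDA and 22.9 in NDST3-treated brain, and how the columns were scaled is not given in the sources used here. When the columns were scaled to the same median, 6420 regions were lower with NDST3 than in 6-OHDA, and 181 of the 891 regions still met the rule, of 184 that met it. The ratio of the 891 then had a median of 1.68 and a lowest value of 1.45. With 1 column per group the spread between libraries is unknown. The values move in small steps: among the 212 regions with a 6-OHDA signal of 13.4 and the 211 with 13.9, the commonest values, neighbouring NDST3 values lay a median of 0.5 and 0.49 apart, and the tags behind a value are not listed. The NDST3 values are also tied to the 6-OHDA value of their own region. Within the rounding of the table (0.005), the NDST3 signal was a whole multiple of the 6-OHDA signal in 62 of the raised regions (6.96%) and, equal values included, in 6.15% of the others, and a whole multiple of the sham signal in 2.47% and 1.67%. In 57.2% of the raised regions and 53.0% of the others it was a whole multiple of the 6-OHDA signal divided by its own double, rounded. How the columns were derived from each other is not given in the sources used here, so a ratio below is a ratio of the deposited values and may not be one of separately scaled signals.

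At the Rpgrip1l region, centred 142 bases upstream of the start, the signal was 4.74 in sham, 4.95 in 6-OHDA and 94.1 with NDST3, a ratio of 16.0. The Smap1 region, centred 50 bases downstream, had 2.12, 4.45 and 75.7, a ratio of 14.1. Before 1 was added, the NDST3 signal was exactly 19 and 17 times that of 6-OHDA at these regions, and 10, 10 and 7 times at those of Prmt7, Selenos and Pmpca. Both Rpgrip1l and Smap1 have this region alone in the table. Idh1 had 3.83, 8.65 and 92.3 at its region 70 bases upstream, a ratio of 9.67. This region lay close to the edge of the band, since 6-OHDA was 2.0 times sham after 1 was added to both. Before 1 was added, 6-OHDA was more than 2 times sham at Smap1, Idh1, Selenos and Syt2, so these met the band only after it. At Rpgrip1l, Smap1 and Idh1 the NDST3 value lay far above both others, while 6-OHDA was close to sham at Rpgrip1l and above it at Smap1 and Idh1.

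Prmt7, an arginine methyltransferase, and Selenos, a selenoprotein of endoplasmic reticulum quality control, shared the values 2.7 in 6-OHDA and 27 with NDST3, with sham at 1.38 and 1.1. Hyou1, a chaperone of the same compartment, had 7.92, 8.65 and 67 at a region 690 bases upstream. Rhno1, a factor of the DNA damage checkpoint, had 12.3, 13.6 and 93.3 at a region 624 bases downstream of its start. Pmpca, a subunit of the peptidase that trims proteins imported into mitochondria, had 6.30, 7.90 and 55.3. Cldn22, a tight junction protein, had 4.31, 7.65 and 51.6, and the zinc finger gene Zfp33b 3.0, 3.0 and 23. By NDST3 signal the highest were Rpgrip1l, Gbe1, Rhno1, Idh1 and Ptpre. Gbe1, the glycogen branching enzyme, went from 25.5 in sham and 45.9 in 6-OHDA to 93.3, and Ptpre, a tyrosine phosphatase, from 17.6 and 27.8 to 91.8. These last 2 had the highest starting values and the lower ratios, 2.01 and 3.23.

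**Figure D2:**
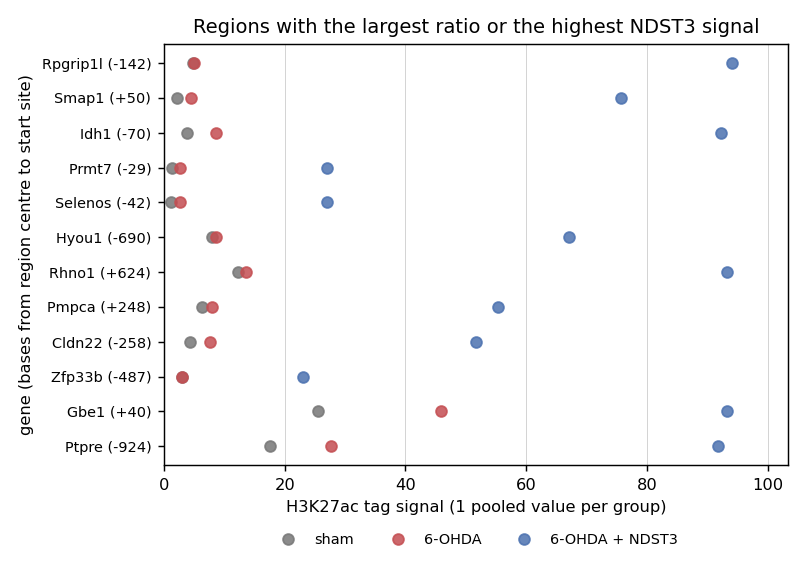
H3K27ac tag signal (x axis) of the 10 raised regions with the largest ratio and of 2 further regions with a high NDST3 signal. Each group has 1 value, and regions are named by gene and position of the region centre. The NDST3 point lies right of both others in each row, from 23 at Zfp33b to 94.1 at Rpgrip1l.

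Near the threshold, 27 of the regions were at exactly 2-fold, among them Arrdc2 (12.5 in 6-OHDA and 25.9 with NDST3), Ccnl2 (2.0 and 5.0) and Cdin1 (12 and 24.9). Just outside it, Robo1 had 13.4 and 27.8, Nfkb1 14.4 and 29.8, and Cetn3 14.9 and 30.8. The inner and outer regions differ by less than 1 step of the signal.

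A raised region was often a single window of a promoter. The 852 genes held 572 further regions that did not meet the rule, at 401 genes, with a median ratio of 1.30, and 412 of these 572 were under 1.5-fold. At Idh1, the regions 171 and 400 bases downstream had ratios of 1.2 and 1.31, between raised regions at 70 bases upstream (9.67) and 523 downstream (2.89). At Rhno1 the region 223 bases downstream had a ratio of 1.05, and at Hyou1 the region 437 bases upstream 1.25. Zfp33b had 1.27 at 98 bases upstream, where its signal was 31.3 in 6-OHDA, above the 23 that its raised region reached with NDST3. So the raised window was the weaker one of this promoter in all 3 groups.

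Of the 852 genes, 39 had 2 raised regions and none had more. The 10 of these with the largest ratio were Idh1, Sars2, Nagpa, Ech1, Spef1l, Mstn, Irgm2, C2cd2l, Adam17 and Gsr. Sars2, the mitochondrial seryl-tRNA synthetase, went from 14.6 to 63.7 and from 12.4 to 26.4 between 6-OHDA and NDST3. Nagpa, which uncovers the lysosomal sorting signal of enzymes, went from 10.7 to 46.6 and from 10.7 to 31.0. Ech1, an enzyme of fatty acid oxidation, went from 9.45 to 40.2 and from 12.5 to 28.9. Gsr, glutathione reductase, went from 3.0 to 11.5 and from 5.45 to 17.8. Adam17, a protease that releases membrane-bound ligands, went from 3.5 to 13.5 and from 3.0 to 7.5. Irgm2, an interferon-induced GTPase, went from 6.45 to 23.8 and from 3.0 to 8.5.

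The raised regions were exactly 100 bases wide in 83.8% of cases and the others in 70.4%. Their centres had a median 99 bases upstream of the start, against 123 for the others, and 38.9% against 33.9% lay within 100 bases of it. The share centred downstream of the start was 28.1% and 29.5%.

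**Figure D3:**
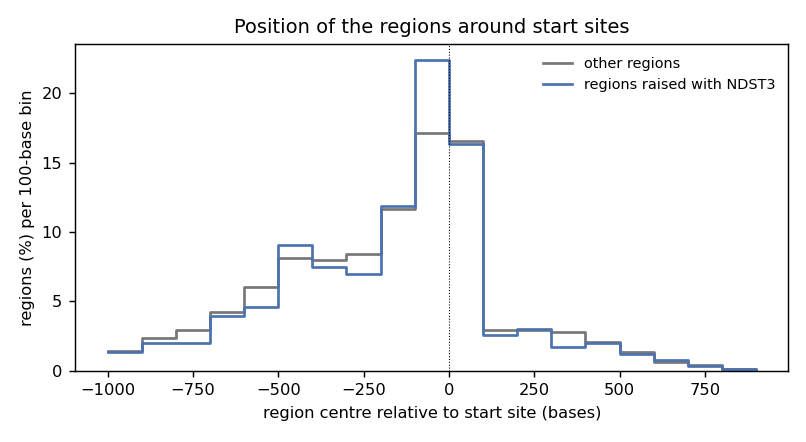
Share of regions (y axis, percent per 100-base bin) by position of the region centre relative to the start site (x axis, bases), for raised regions in blue and others in grey. Both peak next to the start, and the bin from 100 bases upstream to the start holds 22.4% of raised and 17.1% of other regions.

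Regions at genes of protein synthesis, protein breakdown, respiration and zinc fingers were raised at shares on both sides of that over all regions. Of 63 regions of mitochondrial ribosomal protein genes 8 were raised (12.7%), of 29 proteasome regions 3 (10.3%), of 75 cytosolic ribosomal protein regions 5 (6.67%), of 99 regions of oxidative phosphorylation genes, assembly factors included, 6 (6.06%) and of 444 zinc finger regions 29 (6.53%), beside 7.80% over all regions. Mrpl42 had the largest ratio of the mitochondrial ribosome, from 4.70 in 6-OHDA to 25.1, with Mrpl27, Mrpl52, Mrps14, Mrps23, Mrps25, Mrps36 and Mrps5 between 2.09 and 2.62-fold. Psmc3, an ATPase of the proteasome base, went from 4.95 to 28.1, and the core subunits Psmb2 and Psmb5 had ratios of 2.16 and 2.81. In respiration, Ndufab1, the acyl carrier protein of complex I, went from 2.95 to 14.8, Ndufa3, Ndufb1 and Ndufb9 had ratios of 3.29, 2.12 and 2.39, and Cox6a1 and Cox7b of complex IV 3.07 and 2.2. Of the cytosolic ribosome, Rpl3, Rpl7a, Rps16 and Rps23 lay between 2.0 and 2.67. The zinc finger genes, most of them transcriptional repressors, were led by Zfp33b, Zfp300 (14.9 to 59.4) and Zkscan1 (4.0 to 18).

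Genes of the acetylation machinery gave 2 of 34 regions. Hdac6, a cytoplasmic deacetylase of tubulin, went from 12.9 to 29.0, and Kat6b, an H3 acetyltransferase, from 9.95 to 23.4. None was raised of 17 regions of heparan sulfate genes, 14 of neuronal and synaptic genes, 10 of TLDc domain genes or 8 of immediate early genes. At mouse Ndst3 the signal was 14.1 in sham, 6.95 in 6-OHDA and 13.4 with NDST3, a ratio of 1.81. The 5 regions of Ncoa7, a TLDc domain gene that acts in oxidative stress, had ratios of 1.05 to 1.59, and no region of Th, the rate-limiting enzyme of dopamine synthesis, is listed. Of the 8 cell type marker lists, the table held 5 regions outside the neuronal list, and Apoe, a lipid carrier made by astrocytes and activated microglia, was the sole raised one, from 12.1 in sham and 6.95 in 6-OHDA to 19.9.

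RNA-seq was independent of the rule, and it asked whether the genes beside the raised regions changed in transcript level. The 5 libraries held 51003699 to 70533326 counts. Mouse Ndst3 itself had 14.1 and 21 CPM (counts scaled to library size) in sham, 7.96 in 6-OHDA and 23.3 and 13.5 with NDST3 (log2 fold change against 6-OHDA 1.21, standard error 0.43, adjusted p = 0.111 by edgeR), and the human transgene is not among the genes listed. Of the 852 genes, 780 were listed, 3 of them under an older symbol, and 773 passed the filter on low counts. In bulk tissue, fewer cells of a type and less RNA per cell cannot be told apart.

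Between NDST3-treated and 6-OHDA brain, 95 of the 773 genes (12.3%) were higher and 50 (6.47%) lower with an adjusted p under 0.05 by edgeR, beside 9.06% and 6.59% of all 19300 genes tested. Among the 5904 genes with H3K27ac regions of which none was raised, 11.7% were higher and 6.50% lower. The genes with a raised region were therefore near other genes with H3K27ac in the table, and their median log2 fold change was 0.02, against 0.05 for those and 0.00 for all genes. Genes of regions that were raised from a fall in the lesion (224 regions, 187 further genes tested) were higher in 8.02% and lower in 4.81%, and those of regions raised on top of a lesion rise (140 regions, 113 genes) in 9.73% and 7.08%. At the study's threshold of 2-fold with a raw p under 0.05, 49 of the 773 were higher (6.34%) and 45 lower (5.82%), beside 7.3% and 8.37% of all genes. When sham replicate 1, sham replicate 2 or NDST3-treated replicate 1 was left out, edgeR called 0 of the 773 at that adjusted p, while 247, 249 and 250 had a raw p under 0.05. These were 32.0%, 32.2% and 32.3% of the 773, beside 31.1%, 31.2% and 29.8% of all genes. DESeq2 called 142 higher (18.2%) and 105 lower (13.5%), beside 13.8% and 11.9% of all genes.

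Across the 773 genes, the H3K27ac log2 ratio and the RNA log2 fold change had a Spearman rho of -0.00067 and a Pearson r of -0.02, a description across genes that share their libraries. Of the 115 tested genes with a region raised at least 3-fold, 10 were higher and 8 lower in RNA. This is close to the 9.06% and 6.59% of all 19300 genes tested.

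**Figure D4:**
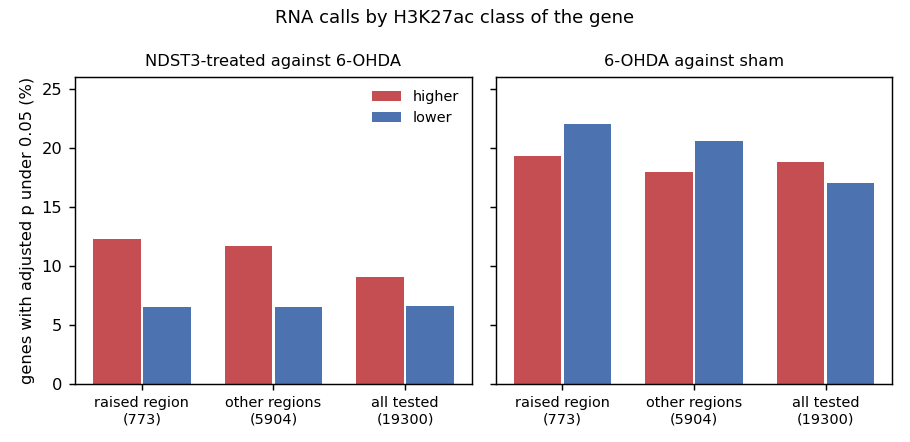
Percent of genes (y axis) with an adjusted p under 0.05, higher in red and lower in blue, for genes with a raised region (773), genes with other H3K27ac regions alone (5904) and all genes tested (19300). For NDST3-treated against 6-OHDA on the left the bars of the first 2 classes are 12.3% and 11.7% higher, and the right panel shows 6-OHDA against sham, which shares the 6-OHDA library.

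The strongest raised regions had RNA that moved in both directions. Rpgrip1l had 31.9 and 37.6 CPM in sham, 16.3 in 6-OHDA and 32.7 and 28.8 with NDST3, a log2 rise of 0.92 (standard error 0.17, edgeR adjusted p = 0.038). Idh1 had 68.2 and 62.1, 107 and 65.0 and 73.0, and fell by 0.64 (standard error 0.12, adjusted p = 0.0398). Selenos, with 31.9 and 29.6, 56.8 and 36.2 and 40.7 CPM, fell by 0.56 (adjusted p = 0.0495). In all 3 the NDST3-treated libraries lay on the sham side of the single 6-OHDA library. Smap1, Rhno1 and Pmpca had log2 fold changes of 0.09, 0.06 and 0.13, with adjusted p of 0.604, 0.840 and 0.349. Prmt7 (0.44, adjusted p = 0.0529), Hyou1 (0.27, adjusted p = 0.150) and Zfp33b (0.88, adjusted p = 0.396) did not pass the test either. Cldn22 had 0.484 CPM in 6-OHDA and at most 0.0579 in the other libraries, and fell by 3.46 (adjusted p = 0.0361 by edgeR) at this low depth. Gbe1 and Ptpre had log2 fold changes of -0.10 and -0.14 and did not pass the test. Rpgrip1l, Idh1, Prmt7 and Pmpca each have a neighbour read in the opposite direction. That of Rpgrip1l, Fto, rose by 0.89 (standard error 0.14, adjusted p = 0.0339 by edgeR). The others, Pikfyve, Slc7a6os and Entr1, had log2 fold changes of -0.01, -0.10 and -0.14 and did not pass. To which gene of a pair a region belongs was not tested.

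Among the genes with the largest rises were Syt2, Lingo4, Caln1, Oprl1, Cdh7, Nrg1 and Smim18. Syt2, a calcium sensor of fast transmitter release, had 366 and 541 CPM in sham, 30.0 in 6-OHDA and 463 and 203 with NDST3, a log2 rise of 3.47 (standard error 0.63, edgeR adjusted p = 0.0371). Its H3K27ac region, 543 bases upstream, went from 5.32 in sham and 11.2 in 6-OHDA to 44.6. The lesion library was below the other 4 in RNA, but H3K27ac there was above sham.

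Caln1, a calcium-binding protein of the Golgi, had 151 and 187 CPM in sham, 22.8 in 6-OHDA and 152 and 92.3 with NDST3 (log2 fold change 2.43, standard error 0.37). Oprl1, the nociceptin receptor, had 79.8 and 99.2, 22.0, and 86.5 and 71.0 (1.84, standard error 0.21). In both genes the 6-OHDA library lay below the other 4, while the sham and NDST3-treated values overlapped.

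Cdh7, a cadherin, rose by 1.71 from 7.22 CPM in 6-OHDA to 23.7 and 23.6, and Nrg1, a ligand of ErbB receptors, by 1.71 from 8.35 to 34.0 and 20.7. Lingo4, a leucine-rich repeat protein, rose by 2.64 from 0.813 to 6.50 and 3.65, and Smim18 by 1.54 from 0.929 to 2.82 and 2.60. The adjusted p of these 6 genes beside Syt2 ranged from 0.032 to 0.0457. Their raised regions had 6-OHDA and NDST3 signals of 7.45 and 18.9 at Caln1, 15.4 and 37.3 at Oprl1, 15.4 and 40.6 at Cdh7, and 2.5 and 12 at Nrg1.

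The 8 largest falls were those of Spin4, Ajuba, Snai2, Slc2a9, Filip1l, Kif11, Fkbp7 and Tax1bp3, which fell by 1.87, 1.69, 1.63, 1.60, 1.45, 1.43, 1.43 and 1.43 on the log2 scale, with adjusted p of 0.0339 to 0.0494. Spin4, a reader of histone methylation, had 0.835 and 1.03 CPM in sham, 3.29 in 6-OHDA and 0.739 and 1.06 with NDST3. Kif11, a kinesin of the mitotic spindle, had 1.28 and 1.67, 8.04, and 2.74 and 3.22. Snai2, a repressor of epithelial genes, had 1.01 and 0.869, 2.90, and 0.857 and 1.02. Here the 6-OHDA library lay above the other 4. These genes lost RNA beside regions that gained H3K27ac, such as Slc2a9, a urate transporter, from 29.0 to 65.3, and Tax1bp3, a PDZ protein, from 4.70 to 17.6.

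**Figure D5:**
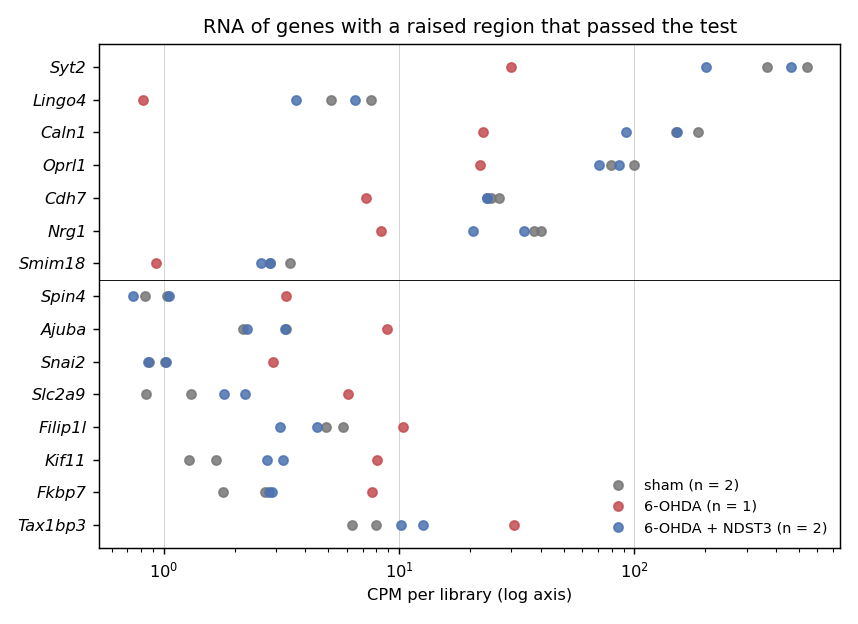
CPM per library (x axis, log scale) of 7 genes with a raised region among those with the largest rise (above the line) and the 8 with the largest fall (below it) between NDST3-treated and 6-OHDA brain. The single red 6-OHDA point stands left of all others in the upper genes, down to 0.813 CPM for Lingo4, and right of all others in the lower genes.

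Between 6-OHDA and sham, the contrast in which the rule asks for little H3K27ac change, 149 of the 773 genes (19.3%) were higher and 170 (22.0%) lower with an adjusted p under 0.05 by edgeR, beside 18.8% and 17.1% of all genes. The 5904 genes with other regions had 18.0% and 20.6%. At 2-fold with a raw p under 0.05, 88 of the 773 were higher and 76 lower, beside 14.4% and 10.1% of all genes. Both comparisons contain the same single 6-OHDA library. When either sham replicate was left out, edgeR called 0 of the 773 here, with 321 (41.5%) and 286 (37.0%) at a raw p under 0.05, beside 39.0% and 32.8% of all genes. DESeq2 called 20.4% of the genes with a raised region higher and 25.1% lower, beside 18.0% and 18.9% of all genes.

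The largest rises were those of Kif2c, Rbm47, Bcl3, Apoe and B2m. Apoe had 3421 and 2056 CPM in sham, 20628 in 6-OHDA and 7361 and 10707 with NDST3, and rose by 2.91 against sham (standard error 0.40, adjusted p = 0.00933). B2m, the light chain of MHC class I, had 90.7 and 74.0, 557, and 215 and 305 (2.76, standard error 0.24). Bcl3, a partner of NF-kB, rose by 3.11, Kif2c, a mitotic kinesin, by 4.24 and Rbm47, an RNA-binding protein, by 3.71. At their regions H3K27ac in 6-OHDA and sham was 6.95 and 12.1 for Apoe, 10.5 and 10.1 for B2m, 4.45 and 9.61 for Bcl3, 8.45 and 6.54 for Kif2c, and 9.65 and 5.92 for Rbm47, values that the rule holds within 2-fold of each other. Among the largest falls were those of Syt2, Lingo4, Caln1 and Nrg1, which fell by 3.92, 2.97, 2.89 and 2.21.

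Sums of cell type markers differed between the groups. The 15 microglia and macrophage markers were all higher in 6-OHDA than in sham, but none passed the test with NDST3. They summed to 4175 and 2524 CPM in sham, 27120 in 6-OHDA and 9697 and 13797 with NDST3. Most of each sum was Apoe, which astrocytes also make, with 3421 and 2056, 20628, and 7361 and 10707. The 30 neuronal and synaptic markers, of which 24 were lower in 6-OHDA and 18 higher with NDST3, summed to 13829 and 15547, 6016, and 12728 and 11476. Choroid plexus and ependyma markers summed to 38.6 to 102 in 4 libraries and to 1188 in NDST3-treated replicate 2. None of these markers was at 0, and the part of cell composition in the RNA values of genes with a raised region was not tested.

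In RNA, all 8 mitochondrial ribosomal protein genes with a raised region were tested, and none passed with NDST3, beside 0 higher and 2 lower of 78 in the list. For proteasome subunits it was none of 3, and none of 38 in the list passed. Of the 6 genes of oxidative phosphorylation, 5 were tested and none passed with NDST3, beside 1 higher and 0 lower of 96, and Ndufab1 fell by 0.47 between sham and 6-OHDA (adjusted p = 0.0368 by edgeR). Of the 5 cytosolic ribosomal protein genes, 3 fell with NDST3, among them Rps16 by 0.73 and Rps23 by 0.50 (adjusted p of 0.0338 and 0.0494 by edgeR), as did 46 of 90 in the list, and reads of these genes may be split with near-identical pseudogenes. Rps16 had 91.6 and 90.0 CPM in sham, 184 in 6-OHDA and 105 and 117 with NDST3. Of 28 zinc finger genes with a raised region, Zfp341 passed with NDST3 and rose by 1.42 (adjusted p = 0.0439 by edgeR), beside 29 higher and 7 lower of 407. Hdac6 and Kat6b had log2 fold changes of 0.31 and 0.13 and did not pass with NDST3, while Hdac6 fell by 0.51 between sham and 6-OHDA (adjusted p = 0.0321 by edgeR).

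ATAC-seq, which reads open chromatin by transposase cutting, had 1 library per group and no test. Of the 852 genes 118 had an ATAC region (13.8%), as did 13.0% of the genes with other H3K27ac regions alone. The 162 ATAC regions with values at the 118 genes had a median ratio of NDST3 to 6-OHDA of 1.06, as the 1148 at genes with other regions had, and 1.08 over all ATAC regions. Of the 162, 8 (4.94%) were at least 2-fold higher and 11 (6.79%) at least 2-fold lower, beside 3.31% and 4.09% of the 1148, and 4.41% of all ATAC regions were at least 2-fold higher.

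Of the 891 raised regions, 31 (3.48%) shared bases with an ATAC region, against 3.37% of the others. In the 33 pairs the ATAC signal was higher with NDST3 in 22, lower in 7 and equal in 4, with a median ratio of 1.08, and none reached 2-fold. Of the 1148 ATAC regions at genes with other H3K27ac regions alone, 652 were higher, 463 lower and 33 equal. The median ratio over all ATAC regions was also 1.08. Nsmce2, a SUMO ligase subunit, had the largest ATAC ratio, with 18.2 in sham, 9.50 in 6-OHDA and 16.5 with NDST3, and H3K27ac of 7.03, 5.20 and 13.0. Wnt5b, a Wnt ligand, had 21, 23.3 and 34 in ATAC and 9.62, 20.1 and 47.7 in H3K27ac. Rps16 had 172, 253 and 346 in ATAC beside 2.5, 2.5 and 6.0 in H3K27ac. The others of the 10 highest were Gm807 (ATAC ratio 1.57), Trmt10b (1.44), Npr2 (1.34), Stoml2 (1.24), Mdn1 (1.21) and Fkbp14 (1.19). Rhno1, with a 6.46-fold H3K27ac ratio, had the same ATAC signal of 26.3 in 6-OHDA and with NDST3.

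In the scRNA-seq table, which gives natural log means of 9 clusters for 6-OHDA and NDST3-treated brain, 786 of the 852 genes were listed and 591 (75.2%) had a mean above 0.1 in some cluster, against 74.8% of the genes with other regions. Of the 591, 187 were highest in cluster 2, where astrocyte and neuronal markers had their highest mean, 97 in cluster 7, where endothelial and mural markers did, and 28 in cluster 3, where microglia and macrophage markers did. These shares (31.6%, 16.4% and 4.74%) stood beside 33.1%, 16.4% and 4.34% for genes with other regions. The median difference between NDST3-treated and 6-OHDA lay between -0.0023 and 0.0081 on the log2 scale in the 9 clusters, and no gene of the 591 reached a difference of 1. Apoe had the lowest difference in clusters 1 to 5 and 7, down to -0.68 in cluster 5. Rpgrip1l, highest in cluster 2, had 0.446 in 6-OHDA and 0.382 with NDST3, and Syt2 was near 0 in every cluster, with a highest mean over both groups of 0.0352.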

How the data were processed

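CUT&RUN for H3K27ac, RNA-seq, ATAC-seq and scRNA-seq tables of mouse brain were used. For RNA-seq, the authors used Trimmomatic, HISAT2 on mm10 and StringTie, and deposited read counts and FPKM per gene. For CUT&RUN and ATAC-seq they deposited a tag signal per region and group. Its normalization and the CUT&RUN peak caller are not given in the sources used here. The authors deposited scRNA-seq cluster means, which fit a natural log scale, after removing cells with very many genes to limit doublets. Cell barcodes were not analysed here.

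Before a ratio of signal was taken, 1 was added to both values. Counts went into edgeR 4.0.16 (R 4.3.3, TMM factors, default filter, quasi-likelihood test over all 5 libraries, Benjamini-Hochberg adjustment over 19300 genes, 2 residual degrees of freedom). The lone 6-OHDA library was taken to vary as the other groups do, and p-values measure the spread between these libraries, which nothing ties to separate animals. The standard error is that of the log2 fold change. DESeq2 1.42.0, limma 3.58.1 with FPKM after adding 1 or 0.1 (log2), other scalings and filters, the 2 groups alone, a replicate block and leaving out each replicate were alternatives. On simulated counts of 18971 genes with 200 changed between NDST3-treated and 6-OHDA, the fit recovered 127, with 11 false calls. The simulation gave every gene the same dispersion and equal sham and NDST3-treated means, with the changes placed in the 6-OHDA library alone. It therefore does not measure the error rate in the real libraries.

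The regions and gene lists were chosen with earlier results of these data known. Genes named are the 10 regions of largest ratio, the 5 of highest NDST3 signal, the 3 on each side of the threshold, list members, 10 genes with 2 regions (ties broken by ratio), the largest RNA changes at a mean of at least 1 CPM (8 each way with NDST3, 5 each way in the lesion), the 10 highest ATAC ratios, Ndst3, Ncoa7 and Th. Ribosomal, proteasome, respiratory and zinc finger lists were taken by symbol prefix, without Rps19bp1, Psmc3ip, Rps6k genes, antisense genes and pseudogenes. Some results are not reported here.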

Additional observations from a re-analysis of the deposited data

How the results depend on the processing

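The number of regions meeting the rule was 956 with a pseudocount of 0.5 and 883 with a signal of at least 1 in all groups. It was 492 with a pseudocount of 5, 184 with the columns scaled to one median, 1971 at 1.5-fold with a band of 0.67 to 1.5, and 133 at 3-fold. Of 31 raised regions sharing bases with ATAC, 20 shared at least 0.5 of the shorter one.

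For NDST3-treated against 6-OHDA, 95 higher and 50 lower became 0 and 0 with the 2 groups alone (135 and 111 at a raw p under 0.05, where edgeR and its adjusted p gave none). With the replicate block they became 0 and 0 (133 and 84 at a raw p under 0.05), and for 6-OHDA against sham 35 and 39. Same-numbered sham and NDST3-treated libraries deviated with r = -0.43 across genes. With 2 libraries per group the deviations mirror each other, so this value cannot decide whether the numbers pair the libraries. With the numbers crossed, an alternative chosen after seeing the data, 132 were higher and 93 lower. Lower calls with NDST3 were 105 by DESeq2, 16 by limma on log2(FPKM + 1) and 10 on log2(FPKM + 0.1). These were 13.5%, 2.05% and 1.28% of the genes with a raised region, beside 11.9%, 3.23% and 2.08% of all genes. At 2-fold with a raw p under 0.05, also added after seeing the data, the calls were 49 and 45, beside 7.3% and 8.37% of all genes. In the lesion they were 88 and 76, beside 14.4% and 10.1%. With each replicate left out, calls with NDST3 ranged from 0 to 103 higher and 0 to 60 lower, and in the lesion from 0 to 157 and 0 to 179. The cause was not tested. Each of these alternatives kept the single 6-OHDA library, so none shows how far a call or its sign rests on that library. Genes whose RNA call is given kept their sign in 483 of 483 refits, and an adjusted p under 0.05 in 287 of the 482 that gave one. Without scaling factors or without the filter, the adjusted p by edgeR was 0.0591 and 0.0527 for Selenos and 0.0519 and 0.0549 for Rps23. The depth behind a tag signal is unknown.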
